A study of Bos taurus with 14 samples.

Results

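The miRNA described here come from the miR-17-92 cluster and its paralogs, measured by small RNA sequencing in small extracellular vesicles (sEVs) of cow milk. They were found by name, as any listed arm and precursor of miR-17, miR-18a, miR-18b, miR-19a, miR-19b, miR-20a, miR-20b, miR-25, miR-92a, miR-92b, miR-93, miR-106a, miR-106b and miR-363. Members were 15 of the 350 deposited miRNA/precursor pairs, or 13 of 268 mature miRNA. miR-19a and miR-106a were not listed. The sEVs came from the milk of 14 Holstein cows with subclinical mastitis, an udder inflammation without visible signs, on 1 commercial farm. All cows ate the same total mixed ration. The 7 cows of the control group received nothing else, and the 7 cows of the inulin group received 300 g/d of inulin, a fermentable fructan fiber, for 5 wk after 1 wk of adaptation. Each library came from the milk of 1 cow, mixed from 3 milkings of the last day. Milk sEVs are shed by several kinds of cells, so that more vesicles from 1 source and more copies per vesicle cannot be told apart.

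A polycistron is a gene whose primary transcript folds into several hairpins, each of which is cut into a miRNA. The miR-17-92 transcript carries the hairpins of miR-17, miR-18a, miR-19a, miR-20a, miR-19b and miR-92a, and is known as a MYC target that favors proliferation and survival of dividing cells, among them lymphocyte precursors. Its paralogs are the X-linked miR-106a-363 cluster and the miR-106b-25 cluster, which lies in an intron of MCM7, a gene for a DNA replication helicase. A miRNA recognizes its targets mainly through its seed, bases 2 to 8, and the clusters hold established seed groups. These are the miR-17 group (miR-17-5p, miR-20a, miR-20b, miR-93, miR-106a and miR-106b), which represses cell cycle inhibitors such as CDKN1A, the miR-25/92 group (miR-25, miR-92a, miR-92b and miR-363), the miR-18 group and the miR-19 group.

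RefSeq genes (assembly ARS-UCD2.0) matched all 16 hairpins looked up by name, those of the 2 unlisted miRNA included. The MIR106B, MIR93 and MIR25 genes lay within MCM7. MIR17, MIR18A, MIR19A, MIR20A, MIR19B and MIR92A-1 lay within 2000 bases of each other, as did MIR106A, MIR18B, MIR20B, MIR19B-2, MIR92A-2 and MIR363. No miRNA gene lay within 2000 bases of MIR92B. Reads of miR-19b and miR-92a, which each have a hairpin in both the miR-17-92 and the miR-106a-363 cluster, cannot be assigned to 1 of them, and are given apart.

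Totals per cow lay between 4165 and 415020 counts (median 72277 for control and 112974 for inulin cows). Levels are CPM, counts per 1000000 counts of the same cow, with no correction for length because a read covers the whole miRNA (listed lengths 20 to 24 nt). A miRNA counts as detected in a cow with at least 1 count. The upper limit that a count of 0 allows, taken as 3 counts, was 7.23 CPM in control cow 5 and 720 CPM in control cow 2. This limit and the 95% Wilson intervals given below cover counting error only. Different miRNA are compared by their reads. How evenly they entered the libraries was not measured, so differences between miRNA are not differences in copy number. Control cow 5 was the most deeply sequenced, and results that rest on it are given with and without it.

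With each mature miRNA counted once, at the precursor with most counts, the members held 1909 counts, 0.115% of all counts. The totals, by contrast, are over all pairs, so a miRNA listed with several precursors, such as let-7a-5p, enters them at each precursor. This lowers the CPM and shares given here. bta-miR-93 and bta-miR-92a made up 90.3% of the member counts. By mean CPM over the 14 cows miR-93 had rank 37 and miR-92a rank 40 among the 268 mature miRNA. The next members were far lower, at 60 counts for bta-miR-20a, 48 for bta-miR-25, 21 for bta-miR-92b, 15 for bta-miR-363, 14 for bta-miR-17-5p and 10 for bta-miR-17-3p. The other 5 members had 6 counts or fewer over all cows. Every cow had at least 1 count of a member, control cow 5 had counts of 12 of the 13, and the next was inulin cow 6, the cow with the second highest total, with 8.

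**Figure D1:**
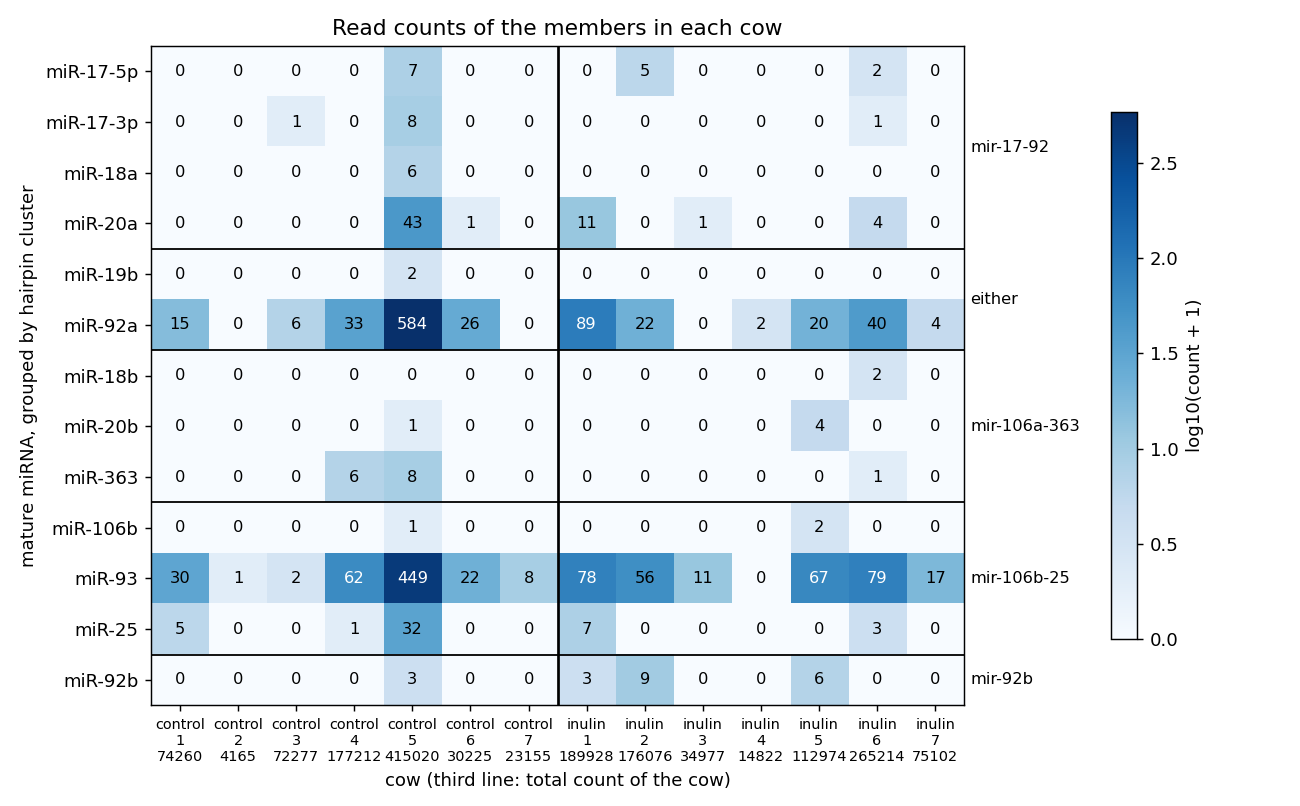
Read counts of the 13 mature members (lines, grouped by hairpin cluster, "either" meaning hairpins in both mir-17-92 and mir-106a-363) in the 14 cows (columns, with the total count of each cow below). The color is log10(count + 1). Counts in nearly every cow are seen for miR-93 (13 cows) and miR-92a (11 cows) alone.

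The miR-106b-25 cluster was seen almost entirely as miR-93. Over all cows miR-93 had 882 counts, miR-25 had 48 and bta-miR-106b had 3, although the 3 hairpins share a transcript. miR-93 thus had 18.4 times the counts of miR-25 and 294 times those of miR-106b. miR-93 was above miR-25 in all 13 cows in which it was detected, and miR-25 was detected in 5 of these. With at least 3 counts these were 11 and 4 cows. In the control group the level of miR-93 was 27.7 CPM in the lowest cow, 350 CPM in the median and 1082 CPM in the highest. In the inulin group the lowest cow, inulin cow 4, had 0 counts in a total of 14822 (3 counts would be 202 CPM), the median was 314 CPM and the highest 593 CPM. The groups overlapped, and only control cows 5 and 6 lay above the range of the inulin group. miR-25 had 5, 1 and 32 counts in control cows 1, 4 and 5 and 7 and 3 counts in inulin cows 1 and 6. miR-106b, whose seed is that of miR-93, had 1 count in control cow 5 and 2 in inulin cow 5.

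miR-92a, the last hairpin of the miR-17-92 transcript with a second copy on the X-linked cluster, was the other abundant member. In the control group its level was 0 CPM in the lowest cows, 186 CPM in the median and 1407 CPM in the highest, and in the inulin group 0, 135 and 469 CPM. It was not detected in control cows 2 and 7 and inulin cow 3, where 3 counts would be 720, 130 and 85.8 CPM. The highest levels were again those of control cows 5 and 6 (1407 and 860 CPM), and the other control cows lay within the range of the inulin group. Reads were listed at both hairpins. The counts at mir-92a-1, 841 in all, and at mir-92a-2, 779, were equal in 10 cows, 3 of which had none. They were higher at mir-92a-1 in 3 cows and higher at mir-92a-2 in 1. Most of the gap was the 53 counts by which mir-92a-1 exceeded mir-92a-2 in control cow 5, 9.08% of its counts at mir-92a-1.

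**Figure D2:**
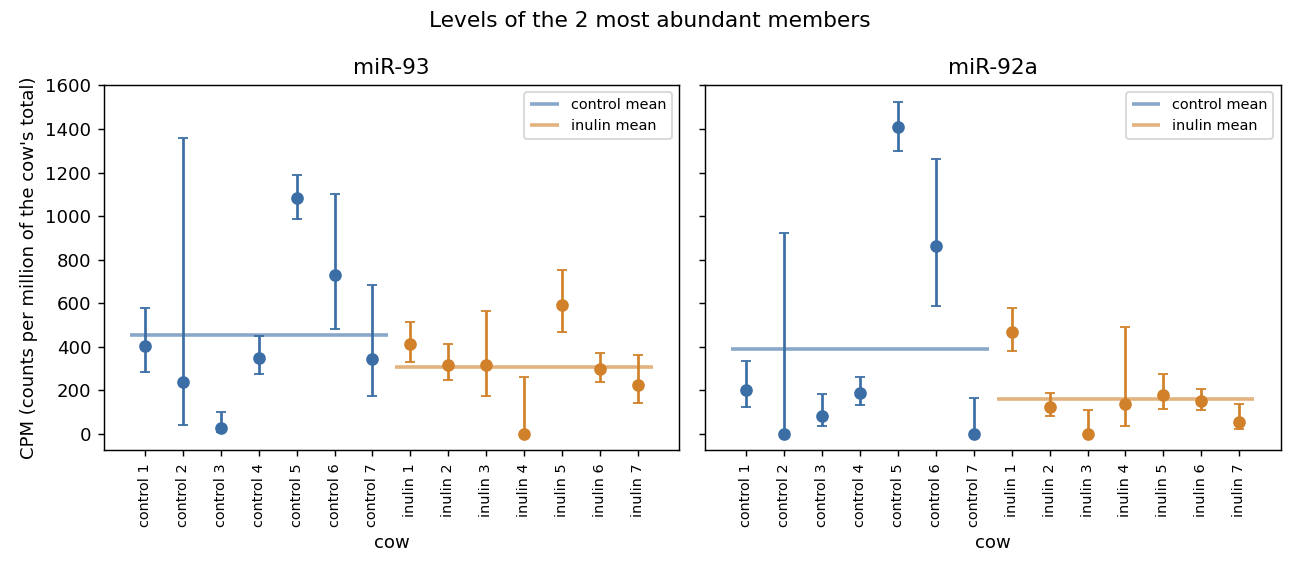
Levels of miR-93 and miR-92a in CPM (y axis) in each cow (x axis), with 95% Wilson intervals as bars and the mean of each group as a horizontal line. Control cow 5, at 1082 and 1407 CPM, stands highest in both panels, and the wide intervals belong to cows with low totals.

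The other members of the miR-17-92 transcript had far fewer counts than miR-92a. miR-20a had 43 counts in control cow 5 and 1 in control cow 6, and 11, 1 and 4 counts in inulin cows 1, 3 and 6. miR-17-5p, which shares its seed with miR-20a, had 7 counts in control cow 5 and 5 and 2 in inulin cows 2 and 6. The ratio of miR-20a to miR-17-5p was 4.29 over all cows, and without control cow 5 they had 17 and 7 counts. The other arm of the same hairpin, miR-17-3p, had 8 counts in control cow 5 and 1 each in control cow 3 and inulin cow 6. Both arms were thus listed at similar totals over all cows, but at 2 (miR-17-3p) and 7 (miR-17-5p) counts without control cow 5. miR-18a had 6 counts, all in control cow 5, and none in the other 6 control cows or the inulin group. bta-miR-19b had 2 counts, also in control cow 5, equal at both of its hairpins. In control cow 5, where counting error is smallest, the levels were 1407 CPM (95% Wilson interval 1298 to 1526) for miR-92a, 104 CPM (76.9 to 140) for miR-20a, 19.3 CPM (9.77 to 38.0) for miR-17-3p, 16.9 CPM (8.17 to 34.8) for miR-17-5p, 14.5 CPM (6.63 to 31.5) for miR-18a and 4.82 CPM (1.32 to 17.6) for miR-19b. Among these the intervals of the last 4 overlap, and those of miR-92a and miR-20a stand clear of each other and of the rest.

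The miRNA that come from the X-linked miR-106a-363 cluster alone had 22 counts. miR-363 had 6 and 8 counts in control cows 4 and 5 and 1 in inulin cow 6. miR-20b had 1 count in control cow 5 and 4 in inulin cow 5, and miR-18b had 2 counts in inulin cow 6. miR-92b, the member with a gene of its own and the seed of miR-92a, had 3 counts in control cow 5 and 3, 9 and 6 in inulin cows 1, 2 and 5. It was the 1 member above 10 counts with fewer in control cow 5 (14.3% of its counts) than that cow's share of all counts, 24.9%.

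By mean CPM the order was miR-93, miR-92a, miR-20a, miR-25, miR-92b, miR-363, miR-17-5p, miR-20b, miR-17-3p, miR-106b, miR-18a, miR-18b and miR-19b. miR-93 was above miR-92a in 9 cows and below it in 5, and their difference within a cow, 1.07 ± 2.14 (SD, n = 14) on the log2 CPM scale, was smaller than its spread. miR-92a was above miR-20a in 11 cows and below it in 1, with a difference of 2.36 ± 1.67 (SD, n = 14). From miR-20a on, neighbors in the order differed by 0.183 or less on the log2 CPM scale, less than the spread between cows for each of these neighbors, and in 7 to 12 cows both were at 0.

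By transcript, the miR-106b-25 cluster held 48.9% of the member counts, the miRNA of either miR-17-92 or miR-106a-363 (miR-92a and miR-19b) 44.2%, those of miR-17-92 alone 4.71%, those of miR-106a-363 alone 1.15% and miR-92b 1.10%. By seed, the miR-17 group held 964 counts (50.5%) and the miR-25/92 group 925 (48.5%), against 8 for the miR-18 group and 2 for the miR-19 group. Each of the large seed groups was thus carried by 1 miRNA, miR-93 or miR-92a, from different transcripts. The miR-17 group was above the miR-25/92 group in 9 cows and below it in 5. Without control cow 5 the miR-106b-25 cluster held 59.0% and the miR-17 group 60.5% of the 765 member counts. Summed over the other 6 control cows and over the 7 inulin cows, the miR-106b-25 cluster held 59.8% and 58.6% and the miR-17 group 57.5% and 61.7%, while in control cow 5 these were 42.1% and 43.8%. The miRNA of miR-17-92 alone held 2 of 219 counts (0.913%) and 24 of 546, and miR-92b 0 and 18 (0% and 3.30%). Between single cows the part of the miR-106b-25 cluster ran from 0% (inulin cow 4, 2 member counts) to 100% (control cows 2 and 7, 1 and 8 member counts).

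**Figure D3:**
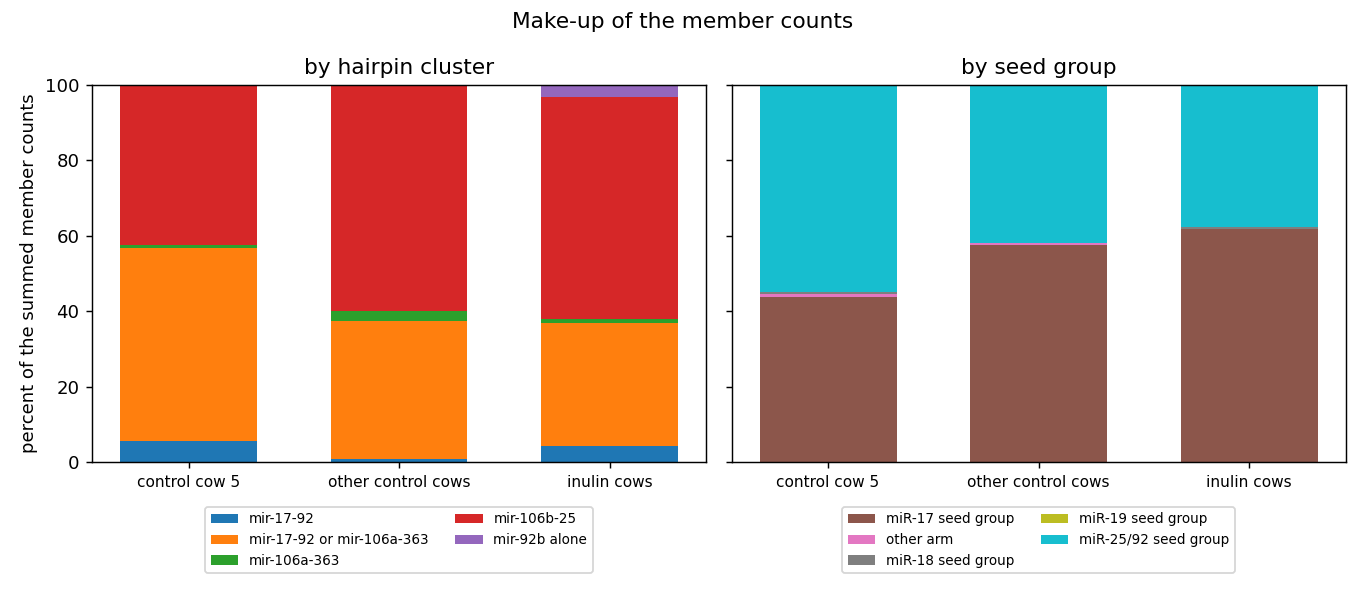
Percent of the summed member counts (y axis) by hairpin cluster and by seed group, for control cow 5, the other 6 control cows and the 7 inulin cows (bars, 1144, 219 and 546 member counts). In control cow 5 the largest parts are miR-92a and with it the miR-25/92 group, and in the other sets of cows the miR-106b-25 cluster and the miR-17 group.

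Control cow 5 held 59.9% of the member counts against 24.9% of all counts. The members made up 0.276% of its total (95% Wilson interval 0.260 to 0.292), 1.70 times the share in the next control cow (control cow 6, 0.162%, 0.123 to 0.214). Inulin cow 6, with 265214 counts, had a share of 0.0498% (0.0420 to 0.0590). The level of miR-20a was 104 CPM in control cow 5 and 15.1 CPM (5.87 to 38.8) in inulin cow 6, and that of miR-25 was 77.1 CPM (54.6 to 109) and 11.3 CPM (3.85 to 33.3). The intervals of control cow 5 and inulin cow 6 did not overlap, while those of inulin cow 1 (miR-20a, 32.3 to 104 CPM, miR-25, 17.9 to 76.1 CPM) overlapped with control cow 5. The summed epithelial, leukocyte and mammary miRNA that follow were also highest in control cow 5, though not each miRNA in them. The 1 listed erythroid miRNA, miR-486, had 0 counts there. The 5 listed epithelial miRNA of 6 looked for (miR-200a, miR-200b, miR-200c, miR-141 and miR-429, without miR-205) made up 1.35% of its counts, against 0.256% to 0.879% in the inulin cows. The 6 listed leukocyte miRNA of 7 (miR-142-5p, miR-142-3p, miR-223, miR-150, miR-155 and miR-146b, without miR-146a) made up 0.0860%, against 0.00454% to 0.0486%. miR-148a and miR-30a-5p, both abundant in the lactating mammary gland, made up 0.871%, against 0.132% to 0.338%. This was almost all miR-30a-5p, with 3608 of its 6301 counts in control cow 5, whereas miR-148a had only 8 of 72 there. Among the leukocyte miRNA the part of this cow was smallest for miR-155 (105 of 347 counts). The medians over the control cows were 0.445% for the epithelial miRNA, 0.0470% for the leukocyte miRNA and 0.148% for miR-148a and miR-30a-5p. The part of the listed miRNA in the high member share of control cow 5 was not tested.

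Whether the members differed with inulin was tested with edgeR (quasi-likelihood test, TMM normalization) on the 210 pairs that had 10 counts or more in total. Of the 15 member pairs 9 met this minimum. The other 6 were tested only in a fit without the minimum, which called 75 of 350 pairs by the criterion given next. There miR-18a/mir-18a was called as lower, with a log2 fold change of -1.95 (SE 0.73, adjusted p = 0.121, edgeR) that rests on 6 counts of control cow 5. A pair was called by the criterion of the paper, P under 0.05 before adjustment with a log2 fold change beyond 1 in size, which held for 9.05% of all 210 pairs, 2.86% higher and 6.19% lower with inulin. Of the 9 member pairs 2 were called, miR-92b/mir-92b as higher and miR-363/mir-363 as lower with inulin. Of the 9, 7 had a negative and 2 a positive log2 fold change, with a median of -1.26 against -0.40 over all tested pairs, which thus leaned lower as well. miR-92a enters these 9 with both of its hairpins, and the median is its value at mir-92a-2. Without control cow 5 only 6 member pairs met the minimum. Their log2 fold changes were 4.20 (miR-92b), 1.44 (miR-20a), -0.01 (miR-93), -0.47 and -0.53 (miR-92a at mir-92a-1 and mir-92a-2) and -0.77 (miR-25). After Benjamini-Hochberg adjustment over the 210 pairs none of the members was under 0.05 (smallest adjusted p = 0.439, edgeR), nor was any other pair (0 pairs in edgeR, with 19 at an unadjusted p under 0.05, and 0 in DESeq2, with 10).

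Control cows had 454 ± 347 CPM (SD, n = 7) of miR-93 and inulin cows 309 ± 180 CPM (SD, n = 7). The log2 fold change was -0.47 (SE 0.77, adjusted p = 0.985, edgeR), with a 95% interval from -2.07 to 1.12, which holds fold changes larger than the criterion in both directions. In mean log2 CPM the difference was -0.54 (exact permutation test, p = 0.527), and 5 of the 7 inulin cows lay lower than the control median. For miR-92a these were 391 ± 537 CPM (SD, n = 7) and 159 ± 150 CPM (SD, n = 7). At mir-92a-1 its log2 fold change was -1.26 (SE 0.97, adjusted p = 0.914, edgeR), with a 95% interval from -3.28 to 0.75, and in mean log2 CPM the difference was -0.28 (exact permutation test, p = 0.797). The control median of miR-92a was above 6 of the 7 inulin cows. Both differences were within the spread between cows.

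The fold changes moved without control cow 5. In its absence the log2 fold change of miR-93 was -0.01 and that of miR-92a/mir-92a-1 was -0.47 (edgeR). Pooled over cows, the level of miR-93 was 328 CPM in the other 6 control cows and 354 CPM in the inulin group, and that of miR-92a 210 and 204 CPM, against 1082 and 1407 CPM in control cow 5. The Wilson intervals of the first 2 sets overlapped for both miRNA (miR-93, 275 to 391 and 317 to 396, miR-92a, 169 to 261 and 176 to 236). They cover counting error in the summed reads only, not the spread between cows. miR-20a had a log2 fold change of -0.61 (SE 1.30, adjusted p = 0.985, edgeR) with all cows and of 1.44 without control cow 5.

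The called members rested on few cows. The counting intervals of their pooled ratios cover counting error in the summed reads only, not the spread between cows. miR-363 was detected in 2 control cows and 1 inulin cow, with 14 and 1 counts, a pooled ratio of inulin to control of 0.0654 (exact 95% counting interval 0.00155 to 0.430). Its log2 fold change was -2.70 (SE 1.14, adjusted p = 0.439, edgeR), and the groups were mostly tied at 0, and the mean log2 CPM differed by -0.34, less than the control SD of 0.67 (exact permutation test, p = 0.462). miR-92b was detected in 1 control cow and 3 inulin cows, with 3 and 18 counts, a pooled ratio of 5.5 (exact 95% counting interval 1.60 to 29.1). Its log2 fold change was 2.76 (SE 1.31, adjusted p = 0.522, edgeR; exact permutation test of the mean log2 CPM, p = 0.192). Neither was called with DESeq2 or limma-voom, where miR-363 had log2 fold changes of -2.52 and -1.56 and miR-92b of 1.76 and 0.44. The call of miR-363 was also lost without inulin cow 1 or 2 (-2.53 and -2.51), and that of miR-92b without control cow 1, 4, 6 or 7 or inulin cow 1, 2 or 5 (2.16 to 2.80) and without the minimum count (3.07). Without control cow 4 or 5 miR-363 had fewer than 10 counts and was not tested.

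Among the members not called, miR-17-3p, with 9 control and 1 inulin counts, had a value of -1.94 on the log2 scale (SE 1.04, adjusted p = 0.69, edgeR). miR-17-5p, from the same hairpin, had 7 counts in each group and a value of 0.56 (SE 1.23, adjusted p = 0.985, edgeR). For miR-25, with 38 and 10 counts, the value was -1.50 (SE 1.25, adjusted p = 0.914, edgeR). Control cow 5 held 32 of the 38, and the value was -0.77 without it, -0.84 without control cow 1, -0.83 without inulin cow 2 and -2.70 without inulin cow 1. In the exact permutation tests of the mean log2 CPM the p-values of the 9 member pairs ranged from 0.192 to 1 (adjusted p = 1 for each over 210 pairs).

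**Figure D4:**
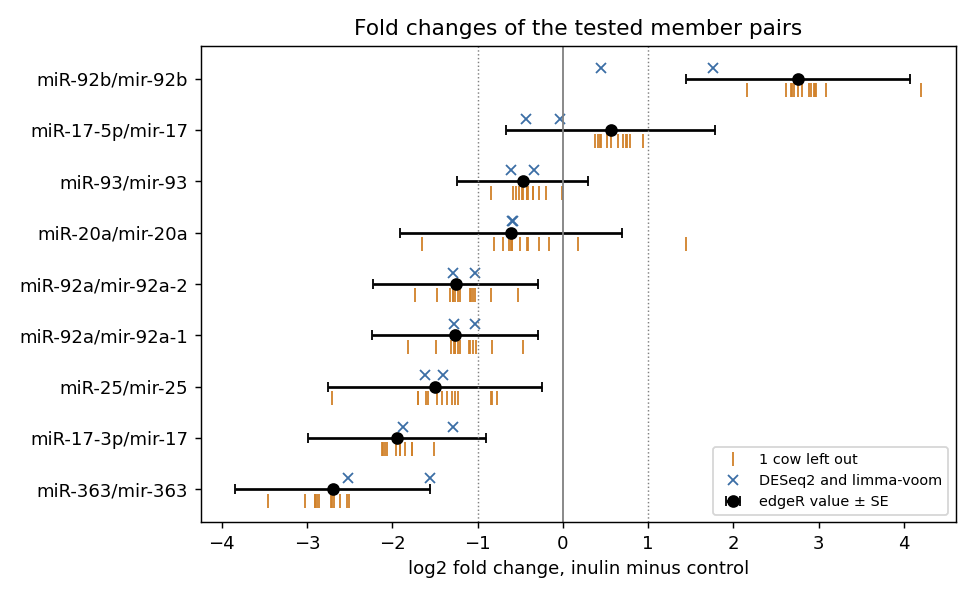
Log2 fold change of the 9 tested member pairs, inulin minus control (x axis), from edgeR with its standard error (black), from DESeq2 and limma-voom (crosses) and with each cow left out in edgeR (ticks). Dotted lines mark an absolute log2 fold change of 1. miR-92b (2.76) lies highest and miR-363 (-2.70) lowest, and the values of miR-20a with 1 cow left out lie on both sides of 0.

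As a summed share, the members held 0.0905% ± 0.0955 (SD, n = 7) of all counts in control cows, with 0.0125% in the lowest, 0.0576% in the median and 0.276% in the highest cow. In inulin cows they held 0.0521% ± 0.0312 (SD, n = 7), with 0.0135% in the lowest, 0.0498% in the median and 0.0990% in the highest. The groups overlapped, with 5 of the 7 control cows inside the range of the inulin group or below it. The miR-17 group made up 0.0476% ± 0.0390 and 0.0336% ± 0.0200 and the miR-25/92 group 0.0421% ± 0.0564 and 0.0183% ± 0.0168 (SD, n = 7 each, control and inulin). The miR-106b-25 cluster made up 0.0476% ± 0.0370 and 0.0318% ± 0.0188 (SD, n = 7 each). All these differences were smaller than the spread in the control group. They are descriptions with no test, as the members were chosen with earlier results known. The let-7 pairs took 41.1% to 91.2% of a cow's counts, and as a share of the remaining counts the members made up 0.468% ± 0.603 and 0.318% ± 0.175 (SD, n = 7 each). Without control cow 5 the control mean of this share was 0.276%, below that of the inulin group, whereas as a share of all counts it was 0.0597%, still above. With 1 precursor per mature miRNA in the total as well, the members made up 0.148% ± 0.171 and 0.0860% ± 0.0480 (SD, n = 7 each, control and inulin). Without control cow 5 the control mean of that share was 0.0915%.

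Only miR-92a and miR-93 were detected in at least 10 cows, so theirs was the only relation between members that was tested over cows. In log2 CPM, Spearman's rho was 0.726 (permutation p = 0.00408, adjusted p = 0.0122 over 3 relations) and Pearson's r was 0.299 (permutation p = 0.301, adjusted p = 0.301, n = 14 cows). The cows thus had similar ranks in both miRNA, while the linear relation did not pass the test. Without control cows 2 and 7, which with 0 counts lay farthest from the median of miR-92a, r was 0.415 and rho 0.811. Inulin cow 3, also at 0 counts of miR-92a, was tied with them and was kept, so these values hold for 1 choice among tied cows. Within the control group rho was 0.883 (exact permutation p = 0.0151, n = 7) and r 0.509 (exact permutation p = 0.262), and within the inulin group rho was 0.50 (exact permutation p = 0.267, n = 7) and r 0.0186 (exact permutation p = 0.942). Without control cow 5 rho was 0.657 (permutation p = 0.0178), and in the 12 cows with at least 20000 counts it was 0.799 (permutation p = 0.00291). As a share of the counts other than let-7 rho fell to 0.506 (permutation p = 0.0694). Neither level was related to depth beyond the threshold after adjustment. Against the log10 total count, r was 0.627 for miR-92a (permutation p = 0.0171, adjusted p = 0.0512) and 0.402 for miR-93 (permutation p = 0.154, adjusted p = 0.232), with rho of 0.576 (adjusted p = 0.0519) and 0.442 (adjusted p = 0.115). The part of depth in the relation between both miRNA was not tested.

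**Figure D5:**
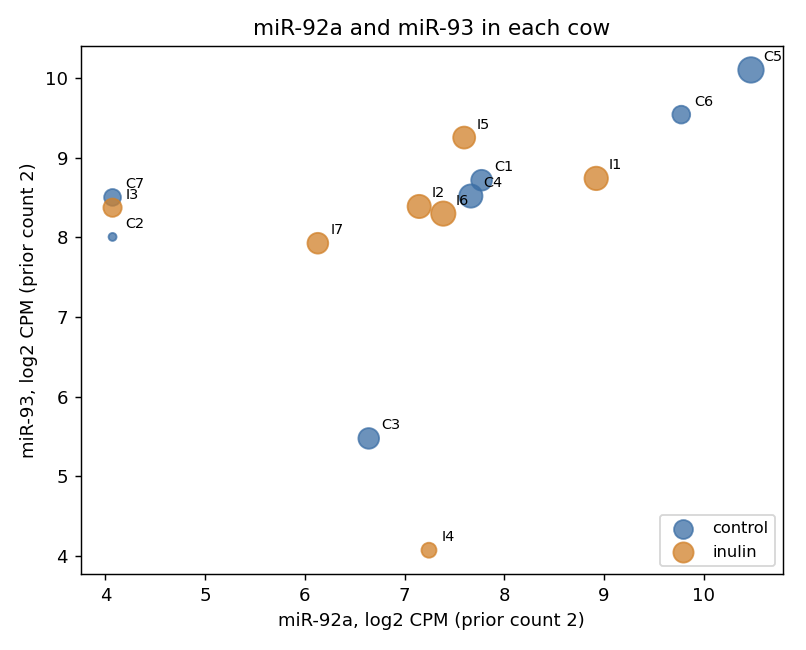
Log2 CPM of miR-92a (x axis) and miR-93 (y axis) with a prior count of 2, in control (C) and inulin (I) cows, with larger points for higher totals. Control cows 5 and 6 are highest in both, and control cows 2 and 7 and inulin cow 3 have no count of miR-92a, as inulin cow 4 has none of miR-93.

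Of the 62 mature miRNA outside the clusters that were detected in at least 10 cows, those whose log2 CPM ranked the 14 cows most like the summed members were miR-191 (Spearman's rho 0.741), miR-185 (0.727), let-7i (0.635), miR-16a (0.631) and miR-16b (0.560). Over all 62 the median rho was 0.184 and the lowest -0.582. These values share the libraries and their depth and are descriptions. miR-32 and miR-367, which have the seed of miR-92a but lie outside the clusters, were not listed. The summed share of the leukocyte miRNA above had a rho of 0.429 with that of the members over the 14 cows, that of the epithelial miRNA 0.284, and that of miR-148a and miR-30a-5p 0.0462.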

How the data were processed

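Small RNA of milk sEVs was analyzed for 7 control and 7 inulin cows. The authors trimmed and filtered the reads, annotated them against Rfam and miRBase, and deposited read counts per miRNA/precursor from miRDeep2, without normalization. The deposited rpm values, computed by the authors from the same counts, were within 0.005 of those recomputed here. The deposited table also lists the summed counts and the length in nt, another unit whose source the authors do not state. The labels name the build ARS-UCD1.2, and gene names came from a table of ARS-UCD2.0, so no positions are given.

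Cows were grouped by their titles, with 0 columns unmapped. A mature miRNA listed with several precursors was taken once, at the precursor with most counts, in all levels and sums. Totals are over all pairs, as deposited. Pairs with at least 10 counts were tested with edgeR (version 4.0.16, R 4.3.3), quasi-likelihood test, TMM. The standard error is the log2 fold change over the root of its F statistic. Adjusted p-values are Benjamini-Hochberg over all pairs. For log2 CPM a prior count of 2 was added, and exact two-sided permutation tests used all 3432 assignments of the cows (smallest possible p = 0.000583). Correlations used 100000 permutations over 14 cows and all permutations over 7. Alternatives were DESeq2 (1.42.0), the tool of the paper, limma-voom (limma 3.58.1), other normalizations, filters and denominators, a prior count of 0.5, 1 precursor per miRNA, a block for the cow number, and leaving out each cow. Fits were also run on simulated counts. Recovery of changed pairs was required there only at a dispersion (spread between cows) far below that of these data (common dispersion 1.43). Other steps used SciPy 1.17.1 and NumPy 2.4.6 in Python 3.11.15, with pandas 2.3.3 for tables and matplotlib 3.10.9 for plots.

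The members and lists were chosen with earlier results of these data known. All listed members are named, with the 5 most alike miRNA detected in at least 10 cows, miRNA of the same seed (miR-32 and miR-367, by name), and the leukocyte, epithelial, erythroid and mammary lists. That each cow is a separate animal comes from the study's description.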

Additional observations from a re-analysis of the deposited data

Results flagged for a closer look

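A cow far from the others of its group was looked for with Dixon's ratio (gap to the nearest cow over the range, with its 95% critical value for 7 cows) in 18 sets of values. For normally distributed values chance would give about 0.9 of these. It was passed 8 times. Where 1 cow of a group has counts the ratio is 1 by construction, as for miR-17-5p and miR-92b in control cow 5 (16.9 and 7.23 CPM) and for miR-363 and miR-17-3p in inulin cow 6 (3.77 CPM each). The others were miR-20a in control cow 5 (ratio 0.681, 104 CPM, 1 of 2 control cows with counts), miR-92a in inulin cow 1 (0.622, 469 CPM), miR-25 in inulin cow 1 (0.693, 36.9 CPM, 1 of 2 inulin cows with counts) and miR-17-5p in inulin cow 2 (0.734, 28.4 CPM, also 1 of 2). The levels of miR-93 and miR-92a in control cow 5 did not pass it, as control cow 6 was also high.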

How the results depend on the processing

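Over all tested pairs the number called, 19, became 9 with DESeq2, 75 of 350 without a filter, 3 with filterByExpr and 7 with the cow number as a replicate block, and 14 to 22 with 1 cow left out. Of the member pairs 2 were called, against 0 with DESeq2, limma-voom, filterByExpr or the replicate block, and 0 to 2 with 1 cow left out. Fewer pairs were tested with filterByExpr, and the causes of the other changes were not tested. Cows with the same number are different animals, and the correlation of their deviations ranged from -0.340 to 0.265, above 0.1 for 2 of 7 numbers, with 0 of 7 control cows closest to their own number.

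Of 184 alternative log2 fold changes of member pairs 161 kept their direction and side of the criterion, 16 lost the call, 1 gained it (miR-17-3p with the size factors of DESeq2, -2.02) and 6 changed sign. The last were miR-17-5p with DESeq2 (-0.035), limma-voom (-0.43) and the block (-0.28) and miR-20a with the block (0.50) and without control cow 5 or inulin cow 2 (from -1.65 to 1.44 over all cows left out). None of the 144 alternatives of the exact permutation tests passed 0.05 (0 values), and 16 changed sign, all with 1 cow left out. Their mean log2 CPM differences ranged from -0.053 to 0.24 for miR-17-5p, -0.23 to 0.34 for miR-20a, -0.81 to 0.22 for miR-92a/mir-92a-1, -0.81 to 0.20 for miR-92a/mir-92a-2 and -1.04 to 0.091 for miR-93.

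The difference in summed share, -0.0385 percentage points, was -0.0623 with 1 precursor per mature miRNA in the total. It was -0.150 over the counts other than let-7, a smaller denominator, where it turned to 0.0415 without control cow 5 (chosen after seeing the data). Over all counts it was -0.0515 to -0.00761 with 1 cow left out, the last without control cow 5. The mean difference between cows of the same number (replicate block) is -0.0385 by construction. With 1 cow left out 7 to 13 of the 13 members kept their rank, 7 without inulin cow 5, and miR-93 and miR-92a were the first 2 in all 14 cases. The relation of both kept its sign in each alternative. Without a filter the 2 called members were miR-363 (-2.61) and miR-18a (-1.95, 6 counts), and miR-92b was not called.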

Other observations

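The 3 cows with totals between 176076 and 189928 can be set side by side at nearly equal total counts. Their counts other than let-7 were far from equal, as let-7 took 41.1% in control cow 4, 91.2% in inulin cow 2 and 74.4% in inulin cow 1. Control cow 4 had 102 member counts (62 of miR-93, 33 of miR-92a), inulin cow 2 had 92 (56 and 22) and inulin cow 1 had 188 (78 and 89). They had counts of 4, 4 and 5 of the 13 members. The rarer members were miR-20a (11 counts), miR-25 (7 counts) and miR-92b (3 counts) in inulin cow 1, miR-92b (9 counts) and miR-17-5p (5 counts) in inulin cow 2, and miR-363 (6 counts) and miR-25 (1 count) in control cow 4.

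Of 3 erythroid miRNA, miR-451 and miR-144 were not listed, and miR-486 had 4 counts in control cow 1 and 1 in inulin cow 4, cows in which the members were not highest.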
